A study of Mus musculus with 6 samples.

Results

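Cathepsins and legumain are the peptidases that digest protein inside lysosomes. The genes described here are the 10 named Ctsa, Ctsb, Ctsd, Ctsf, Ctsh, Ctsk, Ctsl, Ctss, Ctsz and Lgmn, matched by symbol among the 24421 rows of a deposited expression table, and all 10 had a row. The table came from mouse kidney, from primary cultures of proximal tubular epithelial cells, which line the stretch of tubule just after the glomerulus. Cells of all 6 libraries had been cultured with 20 µM erastin2 for 24 h, an erastin analogue that blocks cystine uptake and can drive ferroptosis. The 3 control libraries carried the genotype Atg5F/F (floxed Atg5) and the other 3 the genotype Atg5KO; ATG5 is needed to attach LC3 to the growing autophagosome. All 6 share a batch date and a kidney source, and the labels name neither the animals nor how Atg5 was deleted. With no untreated group, a difference present without erastin2 cannot be told apart from one that depends on it. Nothing says that the libraries came from separate animals or cultures, so the p-values here speak of the spread among 6 libraries, part or all of which may be technical.

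Lysosomal peptidases are made as inactive precursors, tagged in the Golgi with mannose 6-phosphate, carried to the acidic lysosome and activated there by cleavage. Most cathepsins (B, F, H, K, L, S and Z) are cysteine proteases of the papain family, cathepsin D is an aspartic protease, cathepsin A is a serine carboxypeptidase, and legumain cuts after asparagine. Proximal tubule cells take up filtered protein from the urine and break it down in lysosomes, and autophagy delivers a cell's own material to the same compartment.

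The libraries held between 15528454 and 30004933 reads, as implied by the FPKM values (fragments per kilobase of gene, scaled to the library's total). Atg5 itself was higher rather than lower where the label said Atg5KO. It stood at 8.76, 8.95 and 7.94 FPKM in Atg5F/F replicates 1 to 3 and at 13.3, 11.5 and 12.7 FPKM in Atg5KO replicates 1 to 3. A value for the whole gene does not show whether an exon is missing, so the groups are called F/F-labelled and KO-labelled below and each direction rests on those labels. Of 16 markers of the proximal tubule, 7 were high enough to test. Of these 7, 5 fell, among them Ggt1, Kap and Lrp2 (the endocytic receptor megalin), and 2 rose, Aqp1 and Mme. These calls come from the test described below, which called 17.9% of all tested genes lower and 21.3% higher. The markers' summed level was 242.3 to 264.8 FPKM in F/F-labelled and 143.1 to 158.6 FPKM in KO-labelled libraries. Ggt1 made up the largest part of that sum and of its fall, at 126.5 ± 10 and 54.4 ± 3.5 FPKM (SD, n = 3). The transporter genes Slc34a1, Slc5a2, Slc22a6 and Slc22a8 were at or near 0 in both groups. The part of these marker differences in the results below was not tested. Bulk RNA cannot separate fewer cells of a type from less RNA per cell.

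Of the 10 genes, 6 fell and 1 rose in KO-labelled libraries. Cathepsin Z and legumain transcripts fell to 45.6% and 55.9% of the F/F-labelled mean, those of cathepsins D, A and B to between 68.7% and 72.5%, and those of cathepsin L to 86.4%. Cathepsin H went the other way, to 152.8%. Cathepsin F was not called, cathepsin K was too low to test, and cathepsin S was listed at 0 FPKM in every library. The test was limma on log2(FPKM + 1) over the 11559 genes that reached 1 FPKM in 3 or more libraries, called at a Benjamini-Hochberg adjusted p under 0.05. It called 39.2% of all tested genes, 17.9% as lower and 21.3% as higher. Against that, 8 of the 10 genes passed the filter on low values and 7 of those 8 were called. Limma-voom on reads recovered from the FPKM values also called 7 of the 8, and 43.2% of all tested genes. The groups were free of overlap for all 8 genes, as they were for 51.9% of the genes tested. The median log2 fold change of the 8 was -0.47, against 0.02 over all genes tested. For called genes the median absolute log2 fold change was 0.54 among these peptidases and 0.27 over the whole table. The medians were not matched for level, and the log2(FPKM + 1) scale understates changes of low genes. The peptidases were also chosen with earlier results of these data known.

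**Figure D1:**
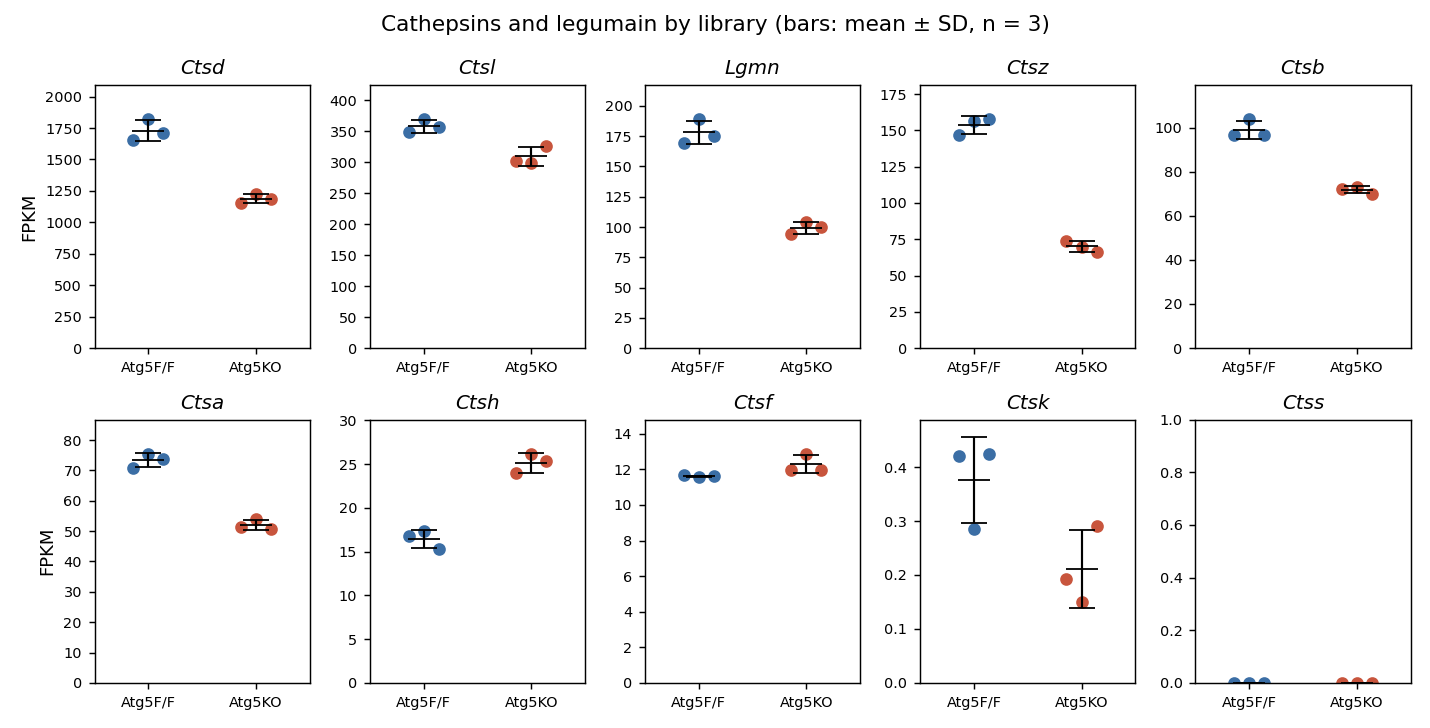
FPKM of each of the 10 genes in each library (points), with the mean and SD of 3 libraries per group (black bars); every vertical axis starts at 0 and has its own scale. The F/F-labelled points lie above the KO-labelled points for Ctsd, Ctsl, Lgmn, Ctsz, Ctsb and Ctsa and below them for Ctsh and Ctsf, while those of Ctsk overlap and Ctss is at 0 throughout.

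Cathepsin D is the main aspartic endopeptidase of the lysosome, and Ctsd (chromosome 7, 142375911 to 142388038, minus strand, GRCm38) was by far the most abundant of the 10 genes. Its levels were 1656, 1820 and 1709 FPKM in F/F-labelled replicates 1 to 3 and 1154, 1225 and 1183 FPKM in KO-labelled replicates 1 to 3. The highest KO-labelled library thus lay well below the lowest F/F-labelled one. Group means were 1728 ± 83 and 1187 ± 36 FPKM (SD, n = 3). On the log2 scale this was a difference of -0.54 (SE 0.066, limma adjusted p = 3.4e-04). These values rest on 40226 to 97103 reads per library. The size of the change depended on the scaling: with quantile normalization, which forces all libraries to the same distribution, the log2 fold change of this very abundant gene was -0.33 (limma adjusted p = 7.1e-04).

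Cathepsin L, a cysteine endopeptidase with a broad range of substrates, is encoded by Ctsl (chromosome 13, 64359337 to 64370890, minus strand) and was second in abundance. Ctsl stood at 348.8, 369.3 and 356.2 FPKM in F/F-labelled and at 302.4, 299.1 and 326.2 FPKM in KO-labelled replicates 1 to 3. The groups did not overlap, and KO-labelled replicate 3 stood above the other KO-labelled libraries. Its change was the smallest of the called genes, at -0.21 on the log2 scale (SE 0.050, limma adjusted p = 0.0098). With quantile normalization it was -0.10 and no longer called (limma adjusted p = 0.21), the 1 call among the 8 genes that any of 17 other settings ended.

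Legumain, the asparaginyl endopeptidase, trims single-chain cathepsins B, H and L into their double-chain forms and is abundant in the kidney. Lgmn (chromosome 12, 102394084 to 102439813, minus strand) went from 169.7, 189.0 and 175.5 FPKM in F/F-labelled to 94.0, 104.1 and 100.2 FPKM in KO-labelled replicates 1 to 3. The groups were far apart compared with the spread inside each. The log2 fold change was -0.83 (SE 0.054, limma adjusted p = 1.2e-05), which placed Lgmn 164th from the lowest of the 11559 tested genes.

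The exopeptidases among the cathepsins, which take residues off the ends of peptides, split by direction. Cathepsin Z removes single residues from the carboxyl end, and Ctsz (chromosome 2, 174427493 to 174439039, minus strand) showed the largest change of the 10 genes. Its levels were 146.8, 156.5 and 157.6 FPKM in F/F-labelled and 74.1, 69.8 and 66.2 FPKM in KO-labelled replicates 1 to 3. Even the lowest F/F-labelled library was far above the highest KO-labelled one. The log2 fold change was -1.12 (SE 0.050, 95% interval -1.24 to -1.01, limma adjusted p = 2.1e-06), the 78th lowest of all tested genes.

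Cathepsin B acts both as an endopeptidase and as a dipeptidase from the carboxyl end. Ctsb (chromosome 14, 63122462 to 63145923, plus strand) stood at 96.8, 103.8 and 96.7 FPKM in F/F-labelled and at 72.0, 73.2 and 70.1 FPKM in KO-labelled replicates 1 to 3, without overlap. The log2 fold change was -0.46 (SE 0.041, limma adjusted p = 6.7e-05). Cathepsin A, also called protective protein, has a dual part: it is a carboxypeptidase and it holds beta-galactosidase and neuraminidase 1 in a complex that keeps them stable. Ctsa (chromosome 2, 164832873 to 164841032, plus strand) went from 70.9, 75.4 and 73.7 FPKM in F/F-labelled to 51.4, 53.9 and 50.6 FPKM in KO-labelled replicates 1 to 3. The difference on the log2 scale was -0.49 (SE 0.041, limma adjusted p = 4.5e-05). It lay close to that of Ctsb, and the 95% intervals of the pair overlapped.

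Cathepsin H, the aminopeptidase of the family, was the only 1 of the 10 genes called higher. Ctsh (chromosome 9, 90054152 to 90076089, plus strand) stood at 16.7, 17.3 and 15.3 FPKM in F/F-labelled and at 23.9, 26.1 and 25.3 FPKM in KO-labelled replicates 1 to 3. All KO-labelled values lay above all F/F-labelled values, at a level far under that of Ctsd. The log2 fold change was 0.58 (SE 0.056, 95% interval 0.46 to 0.71, limma adjusted p = 9.5e-05), the 288th highest of the tested genes. The values rest on 437 to 815 reads per library.

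Cathepsin F, a papain-family endopeptidase with a long propeptide, was nearly level. Ctsf (chromosome 19, 4855130 to 4860918, plus strand) stood at 11.7, 11.6 and 11.6 FPKM in F/F-labelled and at 12.0, 12.9 and 12.0 FPKM in KO-labelled replicates 1 to 3. The groups did not overlap, yet the gap between them was small. Its log2 fold change was 0.07 (SE 0.046, limma adjusted p = 0.23), and the 95% interval of -0.03 to 0.18 lay outside the intervals of all 7 called genes.

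Cathepsins K and S are best known from osteoclasts and from antigen-presenting cells, and their genes lie next to each other on chromosome 3, Ctsk at 95499256 to 95509362 and Ctss at 95526786 to 95556403, both on the plus strand and 17424 bases apart. Ctsk was barely present, at 0.42, 0.28 and 0.42 FPKM in F/F-labelled and 0.19, 0.15 and 0.29 FPKM in KO-labelled replicates 1 to 3. These values come from 20, 7 and 15 reads against 6, 4 and 8, and the groups overlapped. Without a filter on low values its log2 fold change was -0.19 (95% interval -0.33 to -0.04), with an unadjusted limma p of 0.021 and an adjusted p of 0.074, so it was not called there. Ctss was listed at 0 FPKM in 6 of 6 libraries. The macrophage genes Adgre1, Itgam, C1qa, C1qb, C1qc and Laptm5 were likewise listed at 0 throughout. The 15 macrophage markers summed to 11.3 to 13.3 FPKM in F/F-labelled and 10.8 to 12.7 FPKM in KO-labelled libraries, most of it from Csf1r and Cd14. The 8 fibroblast markers summed to at most 0.54 FPKM in any library. The 5 endothelial markers summed to 8.49 to 10.0 FPKM in F/F-labelled and 5.27 to 6.56 FPKM in KO-labelled libraries. Kdr, a receptor for vascular endothelial growth factor and the only one of them high enough to test, fell from 9.06 ± 0.61 to 5.53 ± 0.91 FPKM (SD, n = 3; log2 difference -0.63, limma adjusted p = 0.0013). The part of this difference in the cathepsin results was not tested.

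**Figure D2:**
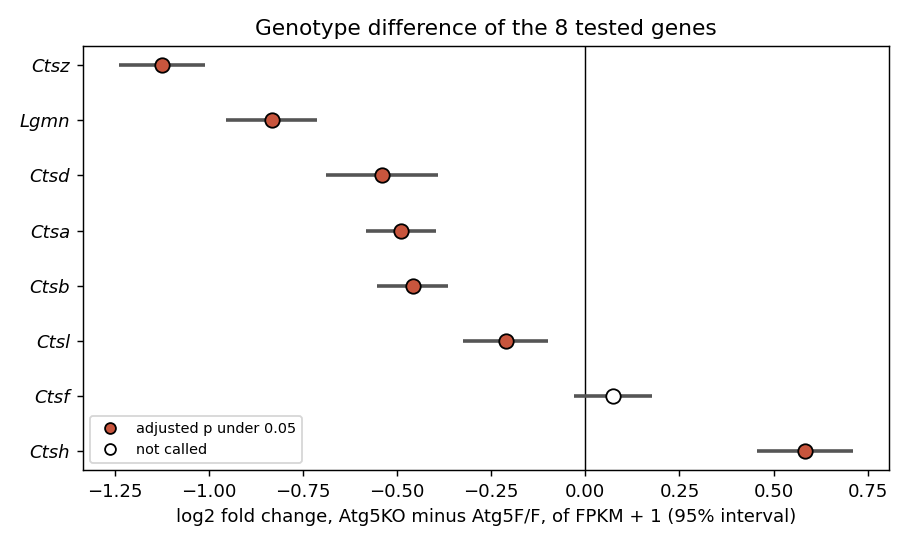
Log2 fold change of FPKM + 1, Atg5KO minus Atg5F/F (horizontal axis), for the 8 genes that passed the filter, with the 95% interval of the limma fit; filled points are called at adjusted p under 0.05. Ctsz and Lgmn lie farthest to the left, Ctsd, Ctsa and Ctsb lie between -0.54 and -0.46, and Ctsh is the filled point to the right of 0.

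An exact permutation test on the 3 against 3 values of a single gene cannot go below a two-sided p of 0.1. It gave that p for each of the 8 tested genes, Ctsf included. Every gene without overlap gets this p, and 51.9% of all tested genes were free of overlap, so the test adds nothing to that count. The authors' deposited table gave the same 7 directions. Its log2 fold changes were -1.16 for Ctsz, -0.87 for Lgmn, -0.57 for Ctsd, -0.53 for Ctsa, -0.49 for Ctsb, -0.24 for Ctsl and 0.58 for Ctsh, with 0.05 for Ctsf. The false discovery rate in the authors' deposited table was 0.91 for Ctsf and 0.23 for Ctsk.

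Cathepsin D dominated the transcript pool. The 10 genes summed to 2518, 2743 and 2596 FPKM in F/F-labelled and 1784, 1864 and 1834 FPKM in KO-labelled replicates 1 to 3, or 0.69% and 0.50% of all FPKM on average. Ctsd made up 66.0% ± 0.31 of that sum in F/F-labelled and 65.0% ± 0.65 in KO-labelled libraries (SD, n = 3), so its share hardly moved while its level fell. The shares of Ctsz and Lgmn shrank, from 5.87% ± 0.19 to 3.83% ± 0.28 and from 6.80% ± 0.082 to 5.44% ± 0.16. Those of Ctsl and Ctsh grew, from 13.7% ± 0.20 to 16.9% ± 0.87 and from 0.63% ± 0.039 to 1.37% ± 0.031. For Ctsl this larger share went with a lower level. In each of these 4 genes the shares of the groups did not overlap. The same held for Ctsf, at 0.44% ± 0.021 and 0.67% ± 0.018, and by a narrow margin for Ctsd. FPKM is scaled to 1 length per gene, which need not be that of the transcript present. Levels of different genes are thus only roughly comparable. By FPKM, the order was Ctsd, Ctsl, Lgmn, Ctsz, Ctsb, Ctsa, Ctsh, Ctsf and Ctsk in F/F-labelled libraries. In KO-labelled libraries Ctsb, at 71.8 ± 1.6 FPKM, and Ctsz, at 70.0 ± 4.0 FPKM, did not differ beyond their spread.

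**Figure D3:**
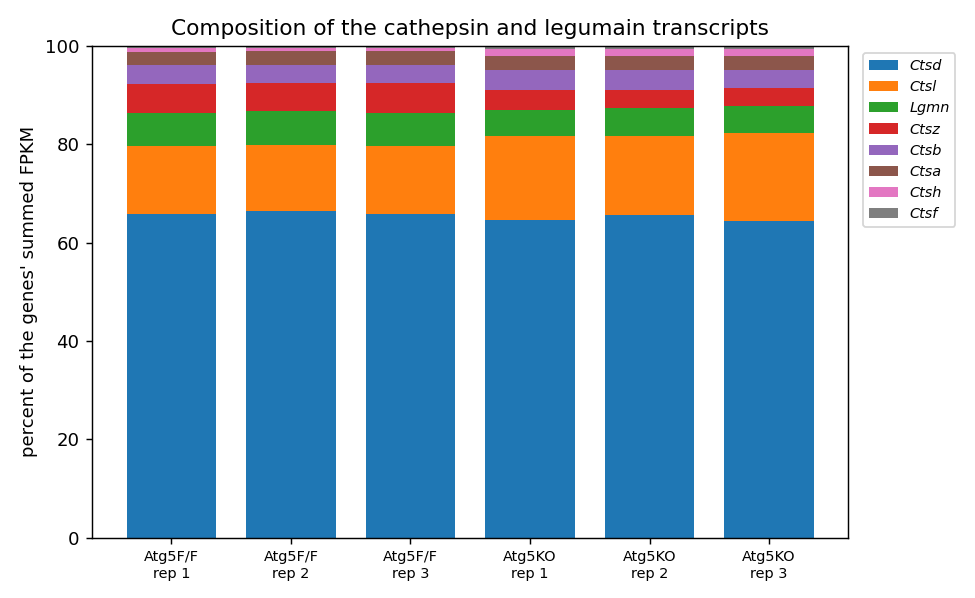
Percent of the summed FPKM of the 10 genes held by each gene (stacked bars, vertical axis) in each of the 6 libraries; Ctsk and Ctss are too low to draw. Ctsd takes 64.5% to 66.3% of every bar, and the bands of Ctsz and Lgmn are thinner in the 3 KO-labelled libraries.

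Lysosomal genes as a class are regulated by the TFEB family of transcription factors, which bind E-box motifs with the core CACGTG, part of the so-called CLEAR element. Promoter windows of RefSeq (build GRCm38.p6, 250 bases before to 50 after each annotated start) were matched for 8 of the 10 genes, Ctsb and Ctsh not among them. Both strands were searched. The core CACGTG was in a window of Ctsa, Ctsd, Ctsf, Ctsl and Lgmn, and in 7.15% of all 32851 windows. Counted by gene, 12.3% of 8748 tested genes with a window held it. The longer TCACGTG, which overlaps the core, was in windows of Ctsa, Ctsd and Lgmn, in 3.77% of all windows and, counted by gene, in 7.33% of the tested genes. The AP-1 motif TGACTCA was in none of the 8, in 5.20% of all windows and in 4.24% of the tested genes. TGACNNNGC, the core of the antioxidant response element bound by NRF2, was in those of Ctsd and Ctsz, in 12.4% of all windows and in 17.4% of the tested genes.

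The bases before the start are shown for Ctsd, the most abundant gene, for Ctsa, whose second annotated start has the core close to it, and for Ctsz, which fell most and has no such core. The surroundings of the core follow for Lgmn (at its second annotated start), Ctsl and Ctsf, the last of which was not called. Each is read 5′ to 3′ on the gene's strand, with CACGTG in capitals.
Ctsd, chr7:142387828-142388077 (minus strand): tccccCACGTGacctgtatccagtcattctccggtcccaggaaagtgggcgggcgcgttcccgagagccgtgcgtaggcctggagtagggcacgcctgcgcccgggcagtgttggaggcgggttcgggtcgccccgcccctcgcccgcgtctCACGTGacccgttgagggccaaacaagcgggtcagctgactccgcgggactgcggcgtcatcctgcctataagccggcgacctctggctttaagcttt
Ctsa, chr2:164833523-164833772 (plus strand): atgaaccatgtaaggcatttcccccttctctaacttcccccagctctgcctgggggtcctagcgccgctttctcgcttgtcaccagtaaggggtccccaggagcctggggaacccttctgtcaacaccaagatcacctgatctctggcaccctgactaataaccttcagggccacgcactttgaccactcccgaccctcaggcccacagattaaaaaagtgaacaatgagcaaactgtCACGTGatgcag
Ctsz, chr2:174439040-174439289 (minus strand): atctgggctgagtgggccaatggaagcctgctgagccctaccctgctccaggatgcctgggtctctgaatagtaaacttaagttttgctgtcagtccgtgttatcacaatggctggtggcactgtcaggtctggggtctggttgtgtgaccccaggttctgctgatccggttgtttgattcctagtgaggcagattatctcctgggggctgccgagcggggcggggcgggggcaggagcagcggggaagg
Lgmn, chr12:102439109-102439168 (minus strand): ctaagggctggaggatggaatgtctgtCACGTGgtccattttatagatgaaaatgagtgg
Ctsl, chr13:64370724-64370770 (minus strand): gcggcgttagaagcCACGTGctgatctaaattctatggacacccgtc
Ctsf, chr19:4855059-4855118 (plus strand): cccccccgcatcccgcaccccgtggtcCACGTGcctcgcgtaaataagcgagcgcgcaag

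The Ctsd sequence holds the core at 245 and 98 bases before the start, and that of Ctsa at 12 bases before it. A further core of Ctsa lies past its second start and is not shown. In Lgmn, Ctsl and Ctsf the core begins 49, 236 and 79 bases before the start. Each start is that of the RefSeq window, and the GENCODE spans given above begin upstream of it. All these cores except that of Ctsf and the farther one of Ctsd lie inside those spans. Of the 6 tested genes with a window, only Ctsz lacked the core. Ctsh, called higher, had no window here, so the core could not be compared between genes that rose and fell. Of the 8748 tested genes with a window, 1074 held the core, of which 20.7% were called lower and 19.6% higher. Among those without it the shares were 17.8% and 21.2%. The median log2 fold changes were -0.01 with the core and 0.02 without it. These are descriptions of letters in a window and say nothing of binding.

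Of the other 14 cathepsin genes in the mouse, only Ctsc and Ctso were high enough to test, and 11, among them the placental cathepsins, were listed at 0 FPKM in every library. Ctso, a papain-family cathepsin, rose from 3.50 ± 0.38 to 4.97 ± 0.19 FPKM (SD, n = 3; log2 fold change 0.41, limma adjusted p = 0.0032). Ctsc, the dipeptidyl peptidase that activates granule proteases, was not called (7.77 ± 0.60 and 7.38 ± 0.23 FPKM). Ctsw, a lymphocyte cathepsin, stayed under the filter at 0.30 ± 0.030 and 0.70 ± 0.18 FPKM, on 6 to 18 reads per library. Without a filter, where limma called 23.3% of 18296 genes, it was called higher (adjusted p = 0.019).

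Of 6 further lysosomal peptidases, 5 fell and the other, Cpq, was not called, with a list median of -0.52. Over all tested genes, 17.9% were called lower and 21.3% higher. Napsa, an aspartic protease of kidney and lung related to cathepsin D, went from 14.3 ± 2.5 to 7.66 ± 1.2 FPKM (-0.81, limma adjusted p = 0.0016). Dpp7 (-0.58), a dipeptidyl peptidase, and the serine carboxypeptidase genes Prcp (-0.54) and Scpep1 (-0.51) fell as well. The fifth was Tpp1, tripeptidyl peptidase 1, at 119.8 ± 4.8 and 85.8 ± 1.2 FPKM (-0.48), named here after its value was seen. Cpq stood at 6.63 ± 0.34 and 7.28 ± 0.12 FPKM.

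Partners of the cathepsins were lower for 4 of 5 genes, against 17.9% of all tested genes, with a list median of -0.47. Psap, the precursor of the saposins that cathepsin D helps to process, fell from 458.2 ± 12 to 287.5 ± 11 FPKM (-0.67, limma adjusted p = 1.7e-05). Of the enzymes held together by cathepsin A, Neu1 (neuraminidase 1) fell from 44.9 ± 1.4 to 30.2 ± 0.30 FPKM (-0.56), as did Galns (-0.47), a sulphatase found with the same complex, while Glb1 (beta-galactosidase) was not called at 13.6 ± 0.80 and 12.8 ± 0.66 FPKM. Grn, progranulin, which cathepsins cleave into granulins, had the smallest called change (-0.18). The count of lower partners was 3 without F/F-labelled replicate 3, KO-labelled replicate 1 or KO-labelled replicate 2, and also with quantile normalization. In the same order, lower calls over the whole table were 1486, 1695, 1943 and 2103, against 2073 as reported.

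Inhibitors of cysteine cathepsins moved in both directions. Of 11 genes 4 were tested, with 2 higher, 1 lower and a median of 0.18. The shares over all tested genes were 21.3% higher and 17.9% lower. Cstb, the cytosolic cystatin B, fell from 310.8 ± 6.1 to 249.1 ± 10 FPKM (-0.32, limma adjusted p = 8.0e-04). Ctla2a and Ctla2b, which resemble the propeptide of cathepsin L, rose from 22.3 ± 1.7 to 30.3 ± 0.99 FPKM (0.43) and from 4.38 ± 0.47 to 6.74 ± 0.75 FPKM (0.52). The 2 are close copies, so reads shared between them leave each value uncertain. The secreted cystatin C gene, Cst3, was not called (195.9 ± 6.4 and 189.2 ± 25 FPKM).

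Genes that tag and sort lysosomal enzymes went both ways. Of 13 tested, 6 were called lower and 2 higher, with a median log2 fold change of -0.11. That is 61.5% called in all, against 39.2% of all tested genes. Igf2r, the large mannose 6-phosphate receptor, fell from 61.1 ± 0.87 to 45.0 ± 0.85 FPKM (-0.43, limma adjusted p = 3.8e-05), and the adaptor gene Gga2 also fell (-0.41). The subunits of the enzyme that starts the mannose 6-phosphate tag went opposite ways: Gnptg fell (-0.29), and Gnptab rose from 10.6 ± 0.13 to 12.8 ± 0.34 FPKM (0.25). The count of lower genes in this list was 3 without F/F-labelled replicate 2 or F/F-labelled replicate 3. Lower calls over the whole table were then 1731 and 1486, against 2073 with all libraries.

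**Figure D4:**
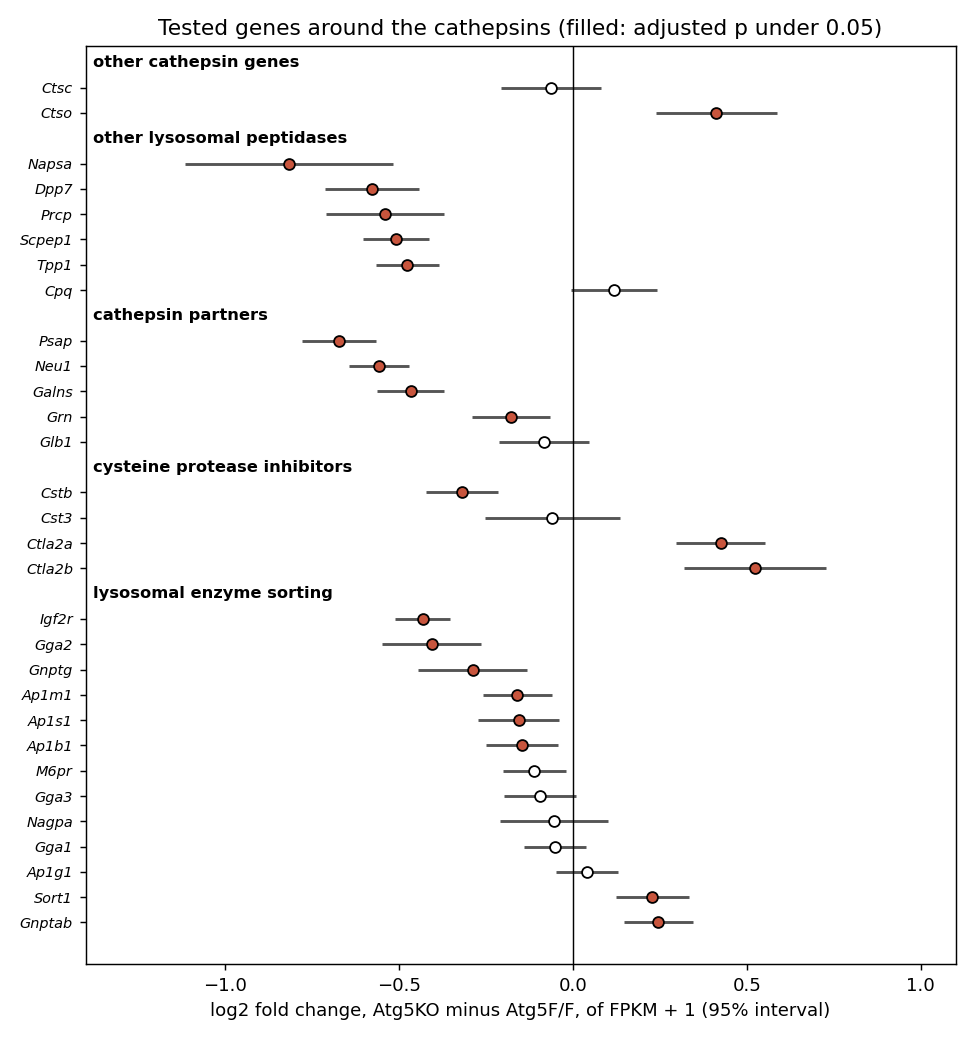
Log2 fold change of FPKM + 1, Atg5KO minus Atg5F/F, with 95% intervals for the tested genes of 5 lists around the cathepsins; filled points are called at adjusted p under 0.05. The further lysosomal peptidases other than Cpq and all partners lie left of 0, and the inhibitors and sorting genes lie on both sides. Of the other cathepsin genes, Ctso is a filled point right of 0, and Ctsc, not called, lies slightly left of it.

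The genes whose pattern was most like that of Ctsz over the 6 libraries were Lgals3, Mdh2 and Acaa2, by Pearson's r of log2(FPKM + 1). Each had an r above 0.99, as did 126 genes in all, since a pattern set by 2 separate groups is shared by many. Lgals3, galectin-3, a lectin recruited to damaged lysosomes, stood at 132.9 FPKM on average in F/F-labelled and 58.2 FPKM in KO-labelled libraries.

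Some of the genes overlap others in GENCODE vM21. Ctsz overlaps Nelfcd (17.0 and 15.7 FPKM in the 2 groups), Ctsb overlaps Fdft1 (8.17 and 9.30 FPKM), and Ctsa overlaps Neurl2 (1.79 and 1.34 FPKM) and Pltp (1.78 and 1.51 FPKM), all on the opposite strand. The strand setting of the counting is not given in the sources used here, so reads of such pairs may not have been told apart. On the same strand, Ctsd overlaps the protein-coding Gm49369, Ctsl the pseudogene Gm49230 and Ctss the pseudogene Hmgb1-ps5. A strand setting would not tell reads of these pairs apart. Ctsl also overlaps Gm47123 on the opposite strand. No FPKM values were available for these overlapping genes.

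**Figure D5:**
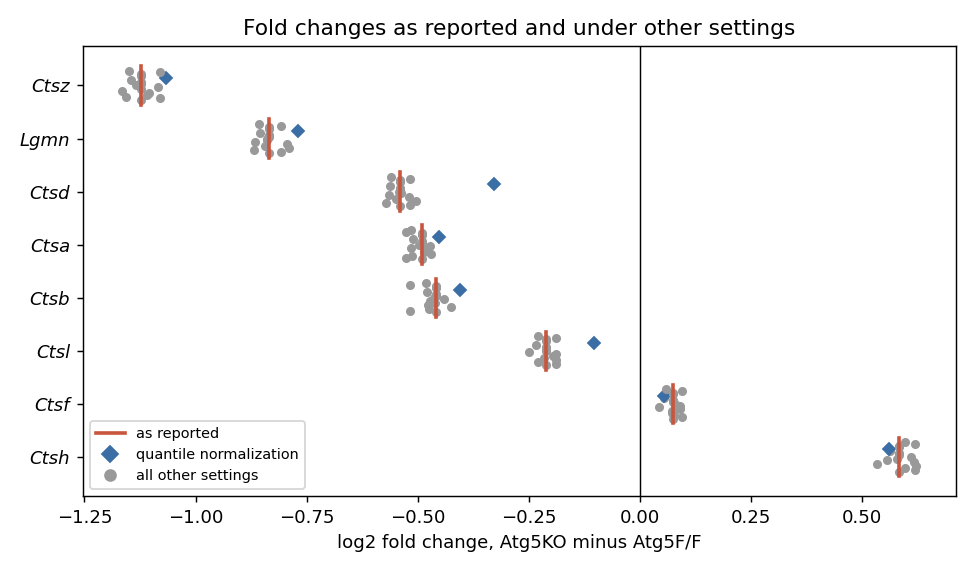
Log2 fold change of each tested gene (horizontal axis) as reported (red bar) and under 17 other settings (grey points, with quantile normalization as blue diamonds). No gene crosses 0, and quantile normalization lies closest to 0 for all 6 genes that fell, farthest from the reported value for Ctsd.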

How the data were processed

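RNA from 6 libraries was sequenced after preparation with a stranded mRNA kit, per the labels' protocols. The submitters' processing notes name the builds GRCm38 and mm10 and the tools HISAT2 2.1.0, Trimmomatic 0.35, edgeR, featureCounts 1.4.6 and bcl2fastq, with no order. Which annotation, strand setting or filters were used is not stated there. Deposited by the authors were FPKM per gene and library, with their own log2 fold change, p-value, FDR and a ranking score, per the file headers. The deposited column named as an adjusted p-value gives the FDR column once adjusted over all rows.

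FPKM values were tested with limma 3.58.1 in R 4.3.3 (linear model, trended eBayes) on log2(FPKM + 1), a scale that understates changes of low genes. The 11559 genes tested reached 1 FPKM in 3 or more of 6 libraries. Groups came from the genotype label. For 18296 genes above 0, 100% of values came back as whole reads, within 2.0e-04 reads or 1.5e-09 of the value, assuming 1 length for a gene and 1 total for a library. Lengths and totals were chosen as those that gave whole reads, so the 100% is not an independent check for genes seen in few libraries. Those reads gave the depths and a voom alternative (30% and 5% trimmed TMM factors). Python 3.11.15 and pandas 2.3.3 read the tables. Scripts were checked on simulated data.

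Named were the 10 genes, Atg5, and from each surrounding list the called genes that changed most (up to 4), or the 2 of lowest p if none passed; genes not called are named where few. Members, lists and tests were chosen with earlier results of these data known. Alternatives were leaving out each library, a replicate block, other pseudocounts, filters, scalings and variance models, a loess trend (span 0.5) on gene length removed, and voom. Positions are from GENCODE vM21 on GRCm38.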

Additional observations from a re-analysis of the deposited data

How the results depend on the processing

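Under 17 other settings, each of the 8 tested genes kept its direction and, with the exception of Ctsl under quantile normalization (log2 fold change -0.10), its side of the threshold. The median over these genes ran from -0.52 to -0.37; the latter came with quantile normalization, and the cause was not tested. The block on replicate number left 7 of the 8 genes called and 4668 in the whole table, against 4530 without it. Whether the numbers pair the libraries could not be settled: deviations of same-numbered libraries correlated at 0.16, 0.08 and -0.02. Those of differently numbered libraries ran from -0.13 to 0.05. Leaving out a library gave 5 to 7 called sorting genes, 3 to 5 of them lower. Calls over the whole table fell as well, to between 3265 and 4122 genes, with 1486 to 1943 lower against 2073 with all libraries. Among other cathepsin genes, 2 were called, both (2) higher, without a filter, where Ctsw entered. At a filter of 5 FPKM limma tested only Ctsc and called 0, with 0 higher, and 0 at an unadjusted p under 0.05; voom called 1 at the usual filter. Few reads stand behind the values of Ctsk (4 to 20 per library) and Ctsw (6 to 18).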
